A study of Homo sapiens with 21 samples.

Results

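Loss and retention of DNA:RNA immunoprecipitation (DRIP) peaks after RNase was examined in the control cells of a study of the ubiquitin ligase RNF8, the exonuclease XRN2 and R-loops. The study used MDA-MB-436, a BRCA1-mutant basal-type breast cancer cell line carrying a doxycycline-inducible lentiviral hairpin, either the scrambled control shScr or shRNF8. Of its 21 samples, 4 are described here: 2 shScr libraries immunoprecipitated with S9.6 (S9.6 1 and 2) and 2 shScr libraries immunoprecipitated with S9.6 after RNase (RNase 1 and 2). All 4 share the cell line, the shScr hairpin and sonicated chromatin, and their condition is labelled WT. The labels give neither the kind of RNase beyond a code (RH), nor its dose and time, nor separate cultures, so the spread between libraries with the same label may be technical. Input libraries were not analysed here. Only chromosomes 1 to 22 and X were considered. S9.6 peaks sharing at least 1 bp were merged, which gave 54573 regions, and the 25675 regions called in both S9.6 libraries, 47.0% of all, form the consensus set. A consensus region was counted as kept where both RNase libraries had a peak sharing at least 1 bp with it, and as lost where neither had one.

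An R-loop forms when RNA pairs with the template strand of DNA and leaves the other strand unpaired. R-loops are known to form behind RNA polymerase at GC-rich gene starts, over gene ends where transcription stops, and over highly transcribed genes, and runs of G on the unpaired strand favour them. S9.6 is an antibody against DNA:RNA hybrids that also has some affinity for double-stranded RNA. Digestion before the immunoprecipitation with an RNase that degrades the RNA of a hybrid, usually RNase H, is the customary specificity control, because signal from hybrids is removed by it.

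Stretches of 250 bases upstream of 6 gene starts show the kind of sequence found in lost and kept S9.6 regions. They were taken from RefSeq (GRCh38.p14, the files' build being hg38), are written 5′ to 3′ on the gene's strand, and carry runs of at least 4 G in capitals. The first 3 lie in the lost regions of highest S9.6 fold that hold such a stretch without an annotated exon, and the last 3 in the corresponding kept regions. The status is that of the whole region, so a kept stretch need not lie under an RNase peak itself. MAGEA4 lies on the plus strand at chrX:151912639-151912888, CKS2 on the plus strand at chr9:89310945-89311194 and ARHGDIA on the minus strand at chr17:81870998-81871247. DAND5 lies on the plus strand at chr19:12969326-12969575, NFIX on the plus strand at chr19:12995225-12995474 and ASPDH on the minus strand at chr19:50513914-50514163. The ASPDH stretch lies upstream of an inner RefSeq start, within the gene's own span (chr19:50511600-50514690).
MAGEA4, lost: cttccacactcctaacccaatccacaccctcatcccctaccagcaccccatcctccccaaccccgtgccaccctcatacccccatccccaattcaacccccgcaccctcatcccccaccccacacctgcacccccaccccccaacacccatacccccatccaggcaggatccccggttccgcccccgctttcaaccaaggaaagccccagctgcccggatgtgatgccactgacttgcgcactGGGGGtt
CKS2, lost: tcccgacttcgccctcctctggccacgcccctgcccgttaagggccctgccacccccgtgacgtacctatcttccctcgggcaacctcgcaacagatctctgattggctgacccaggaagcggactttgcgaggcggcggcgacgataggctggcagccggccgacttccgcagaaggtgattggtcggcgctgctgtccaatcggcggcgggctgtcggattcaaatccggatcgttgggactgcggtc
ARHGDIA, lost: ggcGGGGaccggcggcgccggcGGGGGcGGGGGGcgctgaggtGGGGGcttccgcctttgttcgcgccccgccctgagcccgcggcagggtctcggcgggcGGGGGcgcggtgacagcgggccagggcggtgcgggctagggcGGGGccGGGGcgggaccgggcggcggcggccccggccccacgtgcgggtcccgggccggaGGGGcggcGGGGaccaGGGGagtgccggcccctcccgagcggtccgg
DAND5, kept: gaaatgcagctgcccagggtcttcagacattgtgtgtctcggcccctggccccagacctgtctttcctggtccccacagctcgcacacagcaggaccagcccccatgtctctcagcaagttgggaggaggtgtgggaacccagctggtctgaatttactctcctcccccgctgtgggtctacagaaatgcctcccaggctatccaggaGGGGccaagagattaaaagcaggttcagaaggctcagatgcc
NFIX, kept: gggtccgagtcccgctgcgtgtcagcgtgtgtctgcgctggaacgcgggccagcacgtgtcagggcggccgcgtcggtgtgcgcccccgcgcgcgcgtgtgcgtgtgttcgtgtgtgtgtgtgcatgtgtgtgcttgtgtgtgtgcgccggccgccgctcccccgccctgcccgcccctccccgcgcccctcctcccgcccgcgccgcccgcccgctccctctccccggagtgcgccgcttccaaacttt
ASPDH, kept: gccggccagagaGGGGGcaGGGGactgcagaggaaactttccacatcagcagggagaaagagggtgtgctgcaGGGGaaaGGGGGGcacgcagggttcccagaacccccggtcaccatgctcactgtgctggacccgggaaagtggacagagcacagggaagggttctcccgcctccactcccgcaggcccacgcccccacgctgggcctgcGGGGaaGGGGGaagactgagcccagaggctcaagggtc
Runs of G did not separate the 6 stretches by status. ARHGDIA had 10 runs of at least 4 G, MAGEA4 had 1 and CKS2 had 0 among the lost starts, and ASPDH had 6, DAND5 had 1 and NFIX had 0 among the kept starts. The GC content was 64.4%, 65.2% and 86.0% in the lost MAGEA4, CKS2 and ARHGDIA and 58.4%, 74.8% and 66.8% in the kept DAND5, NFIX and ASPDH.

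Nearly all called peaks were absent after RNase. The S9.6 libraries held 49277 and 38659 peaks, and the RNase libraries held 731 and 997. The RNase libraries were far below both S9.6 libraries, with no overlap between the groups: 67.4-fold fewer peaks in the pair numbered 1, 38.8-fold fewer in the pair numbered 2, and 51.1-fold fewer between the group means of log2 peak number. Peaks covered 47.6 Mb and 43.4 Mb before RNase, and 0.633 Mb and 0.826 Mb after it. A two-sided exact permutation test over the 6 splits of these 4 libraries gave p = 0.333 for both measures, the smallest p that 2 against 2 libraries allow. The median peak was 520 and 597 bp wide before RNase and 475 and 448 bp wide after it (exact permutation p = 0.333).

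The depth of the peak libraries is unknown, since peak lists give no read counts. The median fold over background of the called peaks, the authors' own value per peak, was 6.50 in both RNase libraries against 5.03 and 5.31 before RNase (exact permutation p = 0.333). That is a difference of 1.33, which shrank to 0.216 when a fold of at least 5 was required in all 4 libraries. The lowest fold of any called peak was 4.36 and 4.04 after RNase against 1.99 and 2.44 before, and the lowest −log10 p was 5.61 and 5.62 against 3.88 and 3.89. The part of sequencing depth in the peak loss was not tested. Requiring a −log10 p of 6 or more in all 4 libraries, an alternative chosen after seeing the data, left 149 of 21092 consensus regions kept, or 0.706%.

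The peaks left after RNase were spread differently over 5 kinds of place. Gene starts took 13.6% and 13.4% of the S9.6 peaks and 3.01% and 3.61% of the RNase peaks, counting a summit within 1000 bp of a start. Gene ends, from 1000 bp before to 5000 bp after the end of a gene, took 19.5% and 20.9% before RNase and 9.44% and 9.03% after it. Exons elsewhere took 10.5% and 10.2% before RNase and 4.51% and 3.11% after it. Introns took 45.8% and 46.0% before RNase and 31.9% and 32.2% after it. Summits outside all of these, called intergenic here, took 10.7% and 9.57% before RNase and 51.2% and 52.1% after it. In each of the 5 places the RNase libraries did not overlap the S9.6 libraries (exact permutation p = 0.333 in each, and 0.333 after Benjamini-Hochberg adjustment over the 5). When each S9.6 list was limited to its strongest peaks, as many as the RNase list of the same number, introns turned from a lower to a higher share after RNase, by 16.4 percentage points, while the other 4 places kept their direction.

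**Figure D1:**
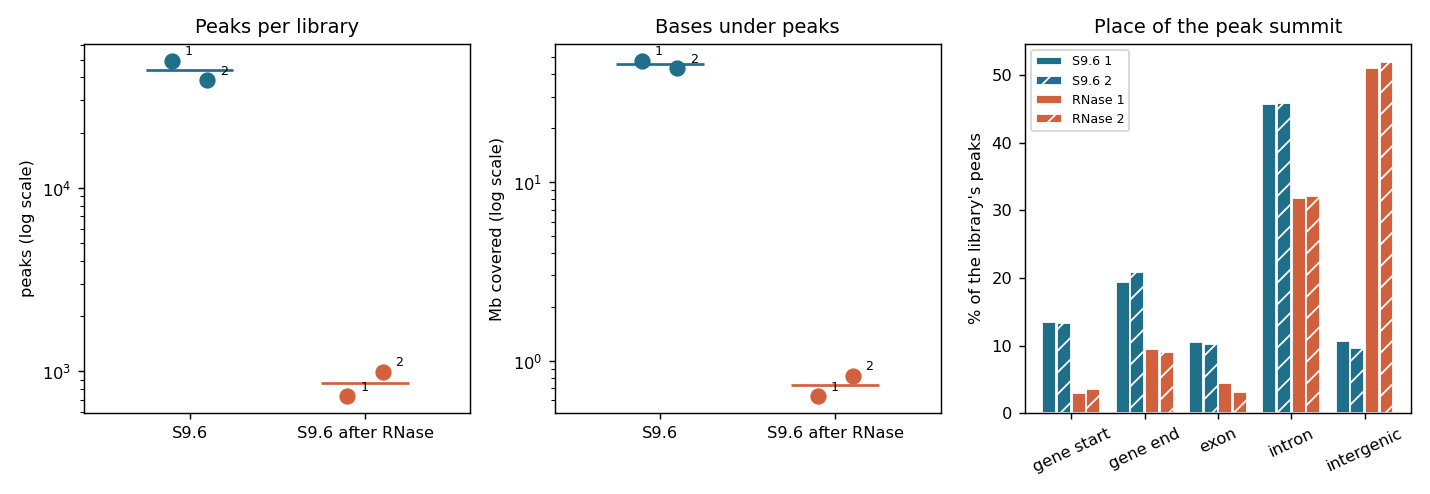
Peaks per library and megabases under peaks (both on log axes, points are libraries with their numbers, lines are arithmetic means), and the percentage of each library's peaks whose summit lies in each place. The RNase libraries hold 731 and 997 peaks against 49277 and 38659, and the intergenic share is 51.2% and 52.1% against 10.7% and 9.57%.

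Of the 25675 consensus regions, 25328 (98.6%) were lost, 176 had a peak in only 1 RNase library and 171 (0.666%) were kept. The exact 95% binomial interval of the kept share ran from 0.570% to 0.773% and covers counting error only, and neighbouring regions are not independent. Counting a peak in either RNase library gave 347 regions, or 1.35%. RNase 1 had a peak in 236 consensus regions and RNase 2 in 282. Regions of high S9.6 fold were lost too: of 262 regions with a mean S9.6 fold of at least 20, 247 were lost and 4 were kept, and of 43 regions with a fold of at least 30, 41 were lost and 1 was kept.

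The 10 lost regions of highest mean S9.6 fold, which by the definition of lost hold no RNase peak, show what disappeared from the lists. JUND, a subunit of the AP-1 transcription factor, had the highest mean fold of all consensus regions, with 60.02 in S9.6 1 and 73.8 in S9.6 2 over chr19:18277428-18283836. JUN, another AP-1 subunit, had 54.8 and 54.6 over chr1:58779513-58787371. FOSL1, an AP-1 subunit of the FOS family, shares its region (chr11:65878127-65892435, fold 52.9 and 61.7) with CCDC85B, at whose start the summit lies. FOS, a further AP-1 gene named here after its values were seen, fell outside these 10, with 38.8 and 37.6 over chr14:75276647-75283354, and its region was lost too. IER3, an immediate-early gene of the stress response, had 43.1 and 44.2 over chr6:30739846-30746398.

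The other 6 of these regions lay at genes of varied function. MAGEA4, a cancer-testis antigen gene on the X chromosome, had 64.9 and 47.8 at its start (chrX:151910369-151913630). The region at EIF4A1, which encodes a translation initiation helicase and carries the snoRNA SNORA48, had 68.5 and 41.5 (chr17:7563522-7578510). CKS2, a regulatory subunit of cyclin-dependent kinases, had 49.1 and 56.1 at its start (chr9:89310245-89311951). MAGEA4 and EIF4A1 had the higher fold in S9.6 1 and CKS2 in S9.6 2. NEAT1, the long non-coding RNA of paraspeckles, had 49.5 and 43.1 over 23502 bp (chr11:65414696-65438197). SCAF1, which encodes a protein that binds the tail of RNA polymerase II, had 44.6 and 45.9 (chr19:49634806-49643680). ARHGDIA had 45.4 and 45.0 (chr17:81862649-81872482).

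**Figure D2:**
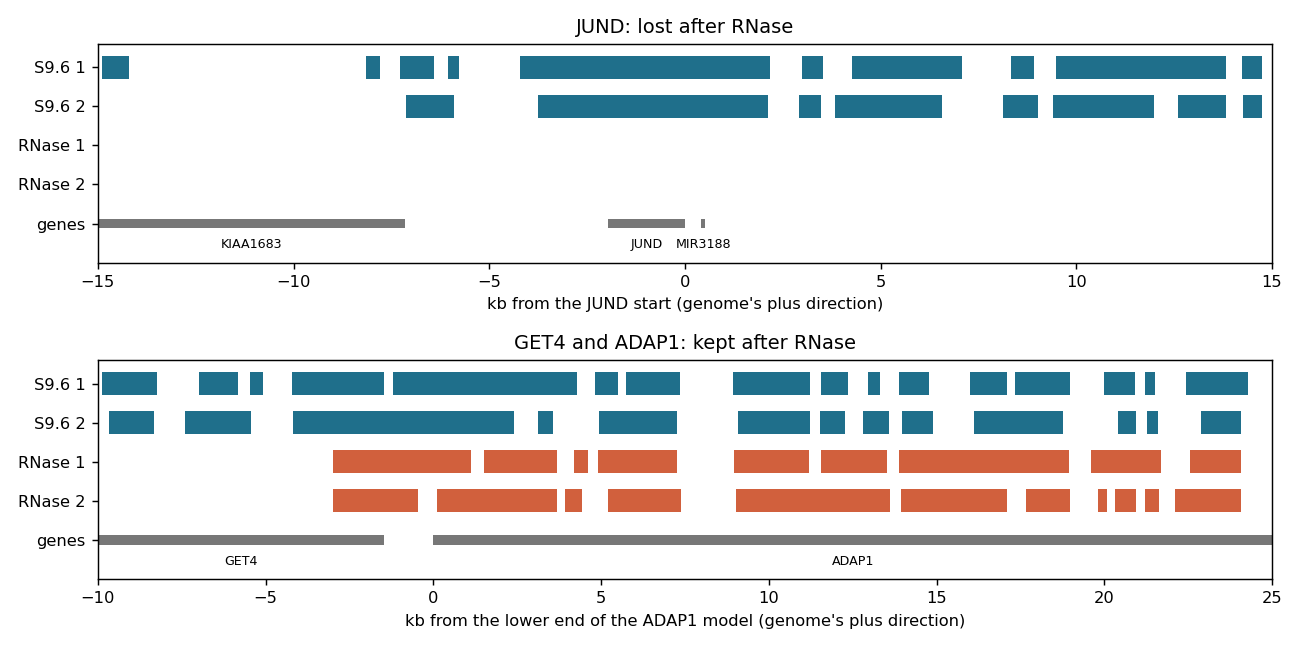
Called peaks around JUND and around GET4 and ADAP1, by distance in kb, with S9.6 libraries in blue, RNase libraries in orange and gene models of the count table in grey. No RNase peak was called within 15 kb of the JUND start, whereas 9 and 11 RNase peaks were called over the 10 kept regions of GET4 and ADAP1.

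Kept regions lay mostly outside genes or in introns, but only the intergenic kept share was above the 0.666% over all regions. Introns held 39.2% of the kept and 42.1% of the lost regions. Of 2241 intergenic consensus regions 61 were kept, or 2.72%, against 7 of 4141 regions at gene starts, or 0.169%. Gene ends kept 23 of 5493 regions (0.419%), exons 13 of 3018 (0.431%) and introns 67 of 10782 (0.621%). Each RNase library gave the same lowest and highest place: 0.386% and 0.411% of regions at gene starts, and 3.57% and 3.93% of intergenic regions, had a peak in RNase 1 and RNase 2. Among the kept regions 14 of 171 lay over 100 kb from any gene model, or 8.19%, against 17 of 25328 lost regions, or 0.0671%. These shares are descriptions of regions from the same 4 libraries and carry no test.

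The kept share also differed by distance to the outermost gene model of the chromosome, used here in place of the chromosome's end. Regions beyond that gene model counted as within 1 Mb of it. On chromosome 21 the first gene model, LOC100507412, starts at base 8197620, so there the measure is not a distance to the chromosome's end. The same holds on chromosome 14. There the kept region chr14:16101462-16102058 lies 2499456 bp beyond the outermost gene model, OR11H12, yet counted as within 1 Mb. How many other regions this concerns was not counted. Within 1 Mb of the outermost gene model 60 of 2071 regions were kept, or 2.90%, and over 10 Mb away 44 of 15240 were kept, or 0.289%. Within 5 Mb lay 116 of the 171 kept regions (67.8%) and 7053 of the 25328 lost regions (27.8%). Intronic regions showed the widest gap, with 59 of 67 kept and 3301 of 10651 lost regions within 5 Mb, or 88.1% and 31.0%. Chromosome 21 had the highest kept share, with 18 of 377 regions (4.77%), and chromosome 19 the most kept regions, with 39 of 3226 (1.21%). Of the 18 on chromosome 21, 12 lay in a run without a gene at chr21:10665421-10729355, under 6 peaks in RNase 1 and 7 in RNase 2. These 12 are among the 116 kept regions within 5 Mb. Chromosomes 6, 11, 18, 22 and X had 0 kept regions, chromosomes 6 and 18 had no RNase peak in any consensus region, and chromosomes 11, 22 and X had 8, 4 and 3 regions with a peak in only 1 RNase library.

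The kept share was higher among strong and wide regions, although most of these were lost too. It was 0.350% in the weakest 10% of regions by mean S9.6 fold and 1.67% in the strongest 10%. By width it was 0.529% for the 6429 narrowest regions (270 to 679 bp) and 1.12% for the 6416 widest (1931 to 49954 bp). The part of width in the kept share was not tested. The median mean fold was 6.87 in kept regions and 5.82 in lost regions, and the quartiles overlapped (5.31 to 10.2 against 4.81 to 7.46).

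**Figure D3:**
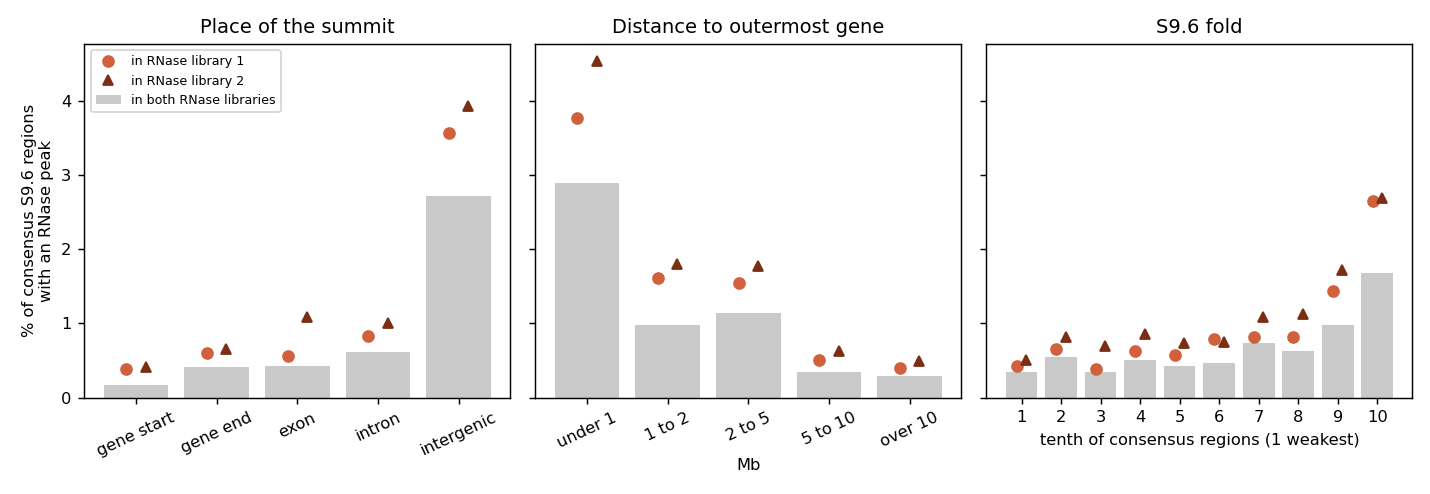
Percentage of consensus regions with a peak in both RNase libraries (bars) and in each RNase library (circles and triangles), by place of the summit, by distance in Mb to the outermost gene model, and by rank of mean S9.6 fold in 10 groups of about equal size. Intergenic regions (2.72%) and regions within 1 Mb of the outermost gene (2.90%) have the highest bars of their panels.

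Kept regions came in runs. The nearest other consensus region was kept for 111 of the 171 kept regions (64.9%) and for 32 of the 25328 lost regions (0.126%). Joining kept regions no more than 100 kb apart gave 66 runs, of which 28 were single regions and 22 held at least 3 and together 111 of the 171. A run starts and ends at a kept region, so its counts leave out the regions that flank it. Some kept regions lay under the same broad RNase peak as another kept region, 33 of them in RNase 1 and 44 in RNase 2.

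The run with most kept regions lay on chromosome 19, where 13 of 13 consensus regions from its first to its last kept region were kept. It takes in GADD45GIP1, a mitochondrial ribosome protein, DAND5, a secreted antagonist of Nodal signalling, and the first part of NFIX, a transcription factor of the nuclear factor I family. Mean S9.6 folds ranged from 4.91 to 20.3, and RNase folds from 6.41 to 12.6 in RNase 1 and from 6.69 to 13.5 in RNase 2. At the DAND5 start (chr19:12969154-12972032, whose upstream sequence is printed above) the folds were 16.7 and 13.5 before RNase and 11.3 and 13.0 after it. At the NFIX start (chr19:12993099-12998032) they were 15.2 and 14.7 before and 12.6 and 12.1 after. NFIX has 13 regions in all, and only this region was kept. All 4 comparisons of a start within a pair gave a lower fold after RNase, but each stayed above 11-fold over its library's own background.

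GET4, a factor for insertion of tail-anchored proteins, and ADAP1, an Arf GTPase-activating protein, shared the next gene-bearing run, with 10 of 10 regions kept at chr7:893692-922179. The 10 regions all touch the ADAP1 locus, which has 11 regions in all, and 9 lie in its introns. The strongest, chr7:902723-905262, had folds of 15.3 and 13.0 before RNase and 12.3 and 11.6 after it. A weak one, chr7:910719-911478, had 3.44 and 5.37 before RNase and 16.2 and 17.4 after it, under peaks that it shares with a neighbouring region. Over the run, RNase folds ranged from 9.79 to 17.0 in RNase 1 and from 9.94 to 17.4 in RNase 2, and mean S9.6 folds from 4.41 to 14.2.

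MORN1, a gene of the MORN-repeat family, kept 7 of its 12 regions, all consecutive (chr1:2319403-2337555). EXD3, a gene with an exonuclease domain, kept 5 of 24, and its strongest region (chr9:137350909-137356388) had 14.3 and 11.7 before RNase and 14.0 and 17.3 after it. PNPLA7, a lysophospholipase gene on the same chromosome, kept 5 of 16. RPH3AL, which acts in vesicle exocytosis, kept 4 of 4, and TRPM2, a calcium-permeable cation channel, kept 4 of 12. The MORN1, EXD3, PNPLA7, RPH3AL and TRPM2 runs held no lost region. Other runs of at least 3 kept regions also held no lost region. In that of EMC10, JOSD2, ASPDH and LRRC4B on chromosome 19, 9 of 9 regions were kept. Some runs were mixed. RASA3, a Ras GTPase-activating protein gene, had 3 kept and 3 lost regions in its run. SBNO2 and SLC12A7, a potassium-chloride cotransporter gene, each had 3 kept, 3 lost and 2 with a peak in 1 RNase library. The run of CALY, PRAP1 and FUOM had 5 kept and 1 lost among 7 regions. The run of ODF3L2 and MADCAM1 had 4 kept and 6 with a peak in 1 RNase library.

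Another run held no gene. On chromosome 21, 12 of 12 regions were kept at chr21:10665421-10729355, with mean S9.6 folds of 3.997 to 8.12 and RNase folds of 11.3 to 34.5 and 17.4 to 41.4. Only 6 peaks in RNase 1 and 7 in RNase 2 covered it, the widest of them 39.2 kb and 17.2 kb. RNase folds were higher than S9.6 folds at all 12 regions in both pairs. A like contrast was seen at chr21:8234353-8234721, with folds of 11.6 and 7.67 before RNase and 38.6 and 40.5 after it. This region lies within the overlapping gene models RNA28S5, named for 28S ribosomal RNA, and LOC100507412, but outside their exons. The RNA28S5 model is long (chr21:8213888-8446211), and whether the region holds ribosomal RNA sequence was not tested. Copies of ribosomal RNA genes share sequence, so reads from them cannot be assigned to 1 copy.

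Over the 171 kept regions the median fold was higher after RNase, and single regions went both ways. It was 7.22 and 6.62 before RNase and 8.13 and 8.99 after it, and the median ratio of RNase to S9.6 fold was 1.21 (quartiles 0.692 to 1.80) for the pair numbered 1 and 1.38 (0.841 to 2.23) for the pair numbered 2. The ratio was above 1 in 97 and 116 of the 171 and ran down to 0.282 and 0.281. The fold is relative to each library's own background, so it does not compare amounts of hybrid. Kept regions were chosen for having a called peak in both RNase libraries. The lowest fold of any called peak was 4.36 and 4.04 after RNase against 1.99 and 2.44 before it. Nothing is therefore read from the higher median or from the ratios. RNase peaks covered 45.7% and 49.9% of the bases of the kept regions.

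**Figure D4:**
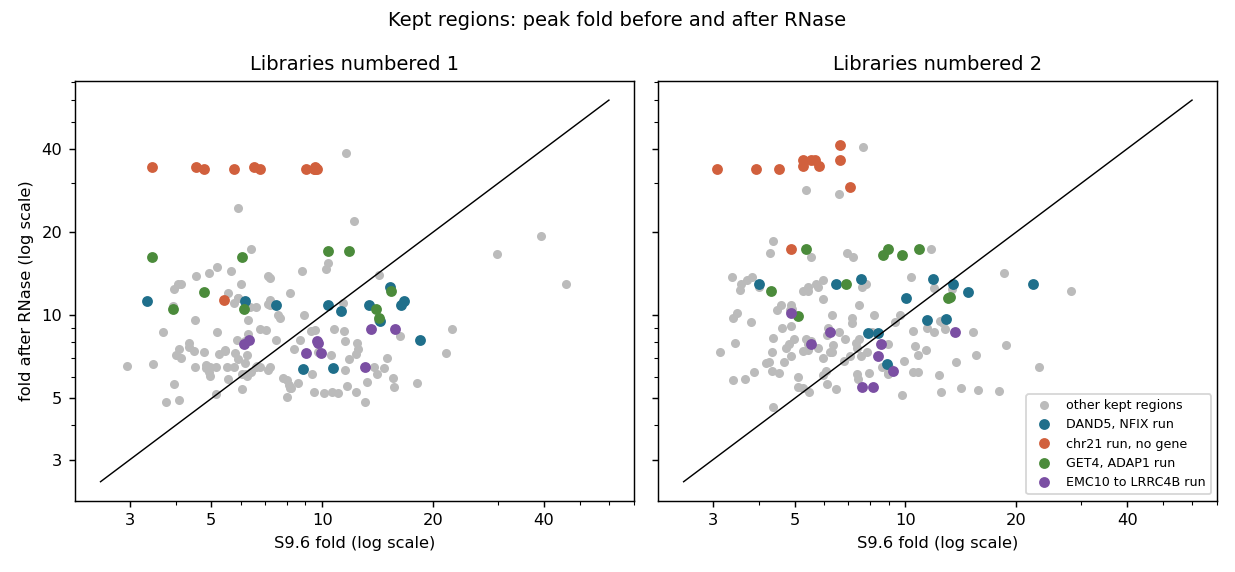
Fold before RNase (x, log scale) against fold after RNase (y, log scale) for the 171 kept regions in the libraries numbered 1 and 2, with the line of equal fold and the 4 runs of most kept regions in colour. Regions of the chromosome 21 run without a gene lie above the line, and the median ratios are 1.21 and 1.38.

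The 10 kept regions of highest S9.6 fold began with 3 places far from genes. Folds at chr3:93470372-93470796, 402456 bp from PROS1, were 45.8 and 28.2 before RNase and 12.9 and 12.2 after it. At chr16:34588016-34588390, 428207 bp from LINC00273, they were 39.1 and 18.5 before and 19.4 and 14.2 after. At chr16:46390414-46391369, 78610 bp from ANKRD26P1, they were 29.8 and 13.4 before and 16.6 and 12.5 after. These 3 regions were under 1000 bp wide and had a higher fold in S9.6 1 than in S9.6 2.

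The other 7 were wider and lay near or in genes. The region chr19:12962306-12966780, 3963 bp from DAND5, had 18.4 and 22.2 before RNase and 8.104 and 13.0 after it. That at the ends of MED16, a Mediator subunit gene, and CFD, complement factor D (chr19:863879-866615), had 21.6 and 17.9 before and 7.31 and 5.34 after. An intron of TMPRSS9, a serine protease gene (chr19:2415131-2418200), had 22.5 and 15.3 before and 8.91 and 8.68 after. Next to it, the region at the ends of TIMM13, a mitochondrial import factor, and LMNB2, lamin B2 (chr19:2423511-2432744), had 12.5 and 23.1 before and 7.57 and 6.50 after. The region of PRAP1 and FUOM, a fucose mutarotase gene (chr10:133344159-133361133), had 16.3 and 18.8 before and 8.403 and 7.81 after. The last 2 were chr14:104815372-104816968, with 18.0 and 14.1 before and 5.69 and 5.45 after, and chr1:228071840-228078225, with 14.96 and 15.5 before and 6.99 and 7.17 after. At all 10 regions the RNase fold was below the S9.6 fold in both pairs, and since they were chosen by their S9.6 fold nothing is read from that order.

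Genes followed the regions. A consensus region lay in the gene or within 1000 bp of its start for 8805 of 25924 gene models (34.0%). All such regions were lost for 8629 genes (98.0%), 115 had regions with a peak in 1 RNase library but none with a peak in both, and 61 (0.693%) had at least 1 kept region. Genes with a peak in either RNase library made up 2.00%. A region lay at the start itself for 6033 genes, and it was lost for 5958 and kept for 18. This status is that of the whole merged region, so a start in a kept region need not lie under an RNase peak. Several of these 18 share a region: ASPDH with JOSD2, PRAP1 with FUOM, and FBXL6 with SLC52A2 and TMEM249. The region of FBXL6, SLC52A2 and TMEM249 spans 13234 bp, and each RNase library had 1 peak in it, 0.509 and 0.78 kb wide.

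Classes of genes known for R-loops were lost at about the share of all genes with a region, 98.0%. Of 25 immediate-early genes with a gene model 24 had a consensus region and 24 of 24 lost all of them, at a median top fold of 18.97 against 7.92 over all genes. All 68 ribosomal protein genes with a region lost it, RPL18 (42.0 and 34.1, in a region shared with FAM83E) and RPL8 (27.7 and 32.1) having the highest folds. Of 62 replication-dependent histone genes with a gene model 8 had a consensus region, or 12.9% against 34.0% over all genes. All 8 lost it, with HIST1H1B at 21.0 and 15.6. Of 14 genes often used as positive sites in R-loop assays 13 were lost, among them EGR1, an early growth response factor (45.4 and 39.8), and GAPDH, a glycolytic enzyme (43.8 and 39.2). MYADM, the remaining one, had a peak in RNase 2 alone with a fold of 5.62.

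Genes that act on R-loops, transcription ends, breaks and splicing also stood near the 98.0% lost over all genes, so their counts are no result about these classes. Only genes with a consensus region are counted, for example 10 of 24 break-signalling genes with a gene model. Of the R-loop factors 24 of 24 were lost, with RTEL1, a helicase, at 23.3 and 20.2 and RNASEH2C, a subunit of RNase H2, at 20.5 and 14.6. Of the 3′ end processing and termination factors 18 of 18 were lost, with CLP1, a kinase of the cleavage complex, at 19.9 and 32.2. Of the break-signalling genes 10 of 10 were lost, with OTUB1, a deubiquitinase, at 13.6 and 14.0. Of the proteasome genes 18 of 18 were lost, with PSMC3, an ATPase subunit, at 28.8 and 29.0. Of 30 SR and hnRNP splicing factor genes 29 were lost, while PTBP1 had a peak in RNase 2 over the region at its start and in RNase 1 over the next region. Of 17 snoRNA host genes 16 were lost, and SNHG3 had a peak in RNase 1 alone, with a fold of 4.88 against 16.2 and 15.3 before RNase.

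Small non-coding genes were lost at shares near those of all genes (98.0%) and all regions (98.6%). Of 20 spliceosomal and other structural RNA genes with a gene model 7 had a region, and all 7 lost it. RNU7-1, the U7 RNA of histone processing, had 15.7 and 15.8. Most 5S ribosomal RNA genes were left out of the gene models, so this count does not cover them. A run of 3 kept regions, chr1:228538001-228648514, spans the 5S gene RNA5S9, which is not itself among the genes with a kept region. Hairpins of 261 of 1558 RefSeq miRNAs lay in consensus regions, and 254 of these (97.3%) were lost, 6 had a peak in only 1 RNase library and 1, MIR6726, was kept (12.4 and 11.96 before RNase and 7.91 and 8.68 after it). The cluster of MIR23A, MIR27A and MIR24-2 lay in 1 lost region with folds of 35.1 and 41.1. Of 8 genes often used as negative sites only ZNF554 had a region, at 5.06 and 5.15, and it was lost. Common fragile site genes had regions in 2 of 19, LPP and GPC6, both lost.

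Kept and lost promoters overlapped in base composition over the 250 bases upstream of RefSeq starts. The median GC content was 68.0% (quartiles 61.6 to 74.0) for 6207 promoters in lost regions, 66.8% (59.4 to 73.4) for 22 in kept regions and 55.2% for 28684 without a consensus region. GGGG was found on the gene's strand in 86.2% of lost, 77.3% of kept and 70.4% of all promoters of this length, and CCCC, the same motif on the other strand, in 84.8%, 86.4% and 70.1%. The ratio of observed to expected CpG had a median of 0.832 in lost and 0.638 in kept promoters, with overlapping quartiles. The 22 kept promoters are not all separate places. ADRM1, ASPDH and LOC105374355 enter more than once, and the stretches of JOSD2 and LOC124904747 overlap.

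RNA levels of genes by status were read from the 3 shScr RNA libraries of the same line, with totals of 18147348 to 20006954 counts. Expression is given as TMM-scaled CPM, the counts scaled to library size, per kb of exon. The median over the 8629 genes that lost all regions was 8.63 ± 0.114 (SD, n = 3 libraries), that over the 61 genes with a kept region 5.002 ± 0.220, and that over 17119 genes without a consensus region 0.0347 ± 0.0111. The quartiles of lost and kept genes overlapped widely in every library, for example 1.27 to 26.8 and 0.478 to 25.7 in library 1. With genes of low counts left out the medians were 13.0 and 12.7. Genes are not replicates, and no test was made.

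Kept genes held both weakly and highly expressed members. The 5 genes with most kept regions were low: ADAP1 had 2.04, 3.88 and 4.24, MORN1 0.926, 0.684 and 0.885, EXD3 1.51, 1.64 and 1.58, PNPLA7 0.214, 0.278 and 0.364, and RPH3AL 0.478, 0.419 and 0.384. Of these 5, all but ADAP1 stayed below 2 in all 3 libraries. TRPM2, which ties with RPH3AL at 4 kept regions, was higher, with 5.44, 3.64 and 3.99. At the chromosome 19 run DAND5 had 0.359, 0.0311 and 0.349, while its neighbour GADD45GIP1 was high, with 268, 201 and 240. Among the strongest lost genes MAGEA4 had 601, 454 and 459, FOSL1 225, 194 and 195, and JUND 63.5, 98.7 and 113. Several immediate-early genes were highest in RNA library 1: EGR1 had 37.2, 3.99 and 4.45, FOS 34.3, 2.40 and 1.59, and JUN 134, 67.7 and 73.0. NEAT1, also among the strongest lost regions, had 5.79, 5.53 and 6.41, below the median of lost genes.

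Peaks that appeared only after RNase formed a further set. Outside the consensus regions lay 448 of 731 RNase 1 peaks (61.3%) and 659 of 997 RNase 2 peaks (66.1%), and outside every S9.6 region 45.7% and 51.9%. Both RNase libraries shared 369 regions, and 137 of these had no S9.6 peak in either library. Of the 137, 104 were intergenic, 30 intronic, 3 at gene ends and 0 at gene starts. The 5 of highest fold all lay between genes. At chr10:38526784-38529650, 76207 bp from LINC00999, the RNase folds were 24.3 and 16.3. The other 4 lay on chromosome 21: chr21:10663421-10664616 next to the run without a gene (13.0 and 20.5), chr21:9246075-9246476 (14.6 and 18.1), chr21:7947093-7948256 (11.3 and 21.3) and chr21:7925284-7926995 (14.6 and 17.5).

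The libraries of the same treatment differed too. Of the RNase 1 peaks 60.7% touched an RNase 2 peak and 42.4% the other way round, against 61.0% and 74.9% for S9.6 1 and 2.

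The shRNF8 cells gave separate RNase libraries in which the same places could be looked up. RNF8 itself had 28.9, 29.0 and 27.9 CPM in the shScr RNA libraries and 9.34, 10.0 and 7.97 in the shRNF8 ones. The 171 kept regions had a peak in 39.2%, 59.1%, 84.8% and 54.4% of cases in shRNF8 RNase libraries 1 to 4, and the 25328 lost regions in 0.0158%, 0.0711%, 1.05% and 0.213%. The regions found only after RNase in shScr had a peak in 21.9%, 37.2%, 73.7% and 49.6%. All 4 shRNF8 RNase libraries had a peak in 51 of the 171 kept and in 0 of the lost regions. The share in every set was highest in shRNF8 RNase library 3, which held 1912 peaks, and lowest in library 1, which held 254.

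Peak loss did not differ detectably between the hairpins. The log2 ratio of RNase to S9.6 peak number was −6.07 and −5.28 in the shScr pairs and −6.99, −6.35, −4.74 and −6.13 in the shRNF8 pairs, the pairs being matched by number only. The shScr values lay inside the range of the shRNF8 values. The shRNF8 mean was lower by 0.376 on the log2 scale (−6.05 ± 0.950, SD, n = 4, against −5.68 ± 0.564, SD, n = 2), with p = 0.667 in a two-sided exact permutation test over 15 splits, whose smallest p is 0.0667. Without the shScr pair numbered 2 the difference was 0.0227 in the other direction.

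**Figure D5:**
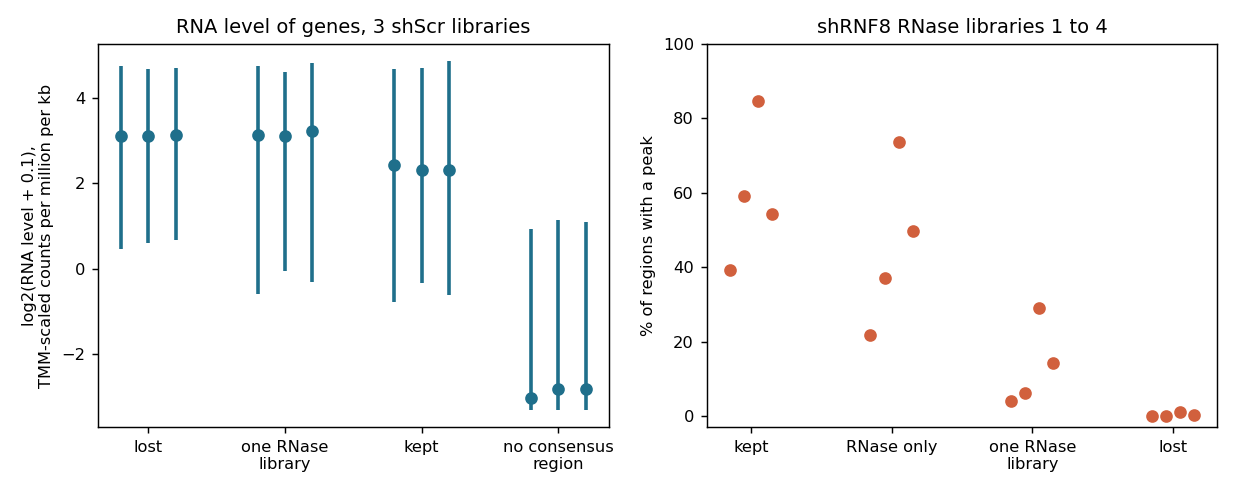
Left, median (points) and quartiles (lines) of the RNA level of genes in each of the 3 shScr RNA libraries, as log2 of the level plus 0.1, by the status of their S9.6 regions. Right, percentage of regions of each status with a peak in each of the 4 shRNF8 RNase libraries, which is 39.2% to 84.8% for kept and at most 1.05% for lost regions.

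The labelled cell line was checked against markers. In the shScr RNA libraries 12 of 13 basal and mesenchymal markers were above 1 CPM in all 3, with VIM, the intermediate filament vimentin, at 888 to 1083. Of 13 luminal markers 7 were above 1, with KRT8 at 493 to 892 and TFF1 at 0 counts. Of 12 blood, endothelial and fat cell markers 1 was, CD14 at 10.0 to 12.8, and ADIPOQ, CD3E, CDH5 and HBB were at 0 counts.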

How the data were processed

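Per the submitters' processing notes, the tools were Trim Galore 0.6.6, Bowtie2 2.2.6, STAR 2.7.9a, SAMtools 1.14, Picard 2.10.9, MACS2 2.2.7.1, deepTools 3.5.1 and featureCounts of Subread 2.0.1, with build hg38; their settings are not given in the sources used here. The deposited peak lists hold, per peak and library, a fold ratio over background and −log10 p and q values, which the authors' peak caller made. The deposited RNA table holds raw read counts per gene, with no normalization by the authors.

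The authors deposited 1 peak list per library, and each was used as it is on chromosomes 1 to 22 and X. Members and gene lists were chosen with earlier results of these data known. Gene models were the 25924 of 26485 in the count table with 1 locus there (1 strand, exons at most 3 Mb apart). Among those left out, 99 were models with several equal-sized copies, most 5S ribosomal RNA genes included. Regions and statuses were computed in Python 3.11.15 (pandas 2.3.3, NumPy 2.4.6, SciPy 1.17.1) and checked on simulated peak lists, where all 4000 simulated places got the right status. RNA counts were TMM-scaled in edgeR 4.0.16 (R 4.3.3). Named regions and genes were the 10 lost, 10 kept and 5 RNase-only regions of highest mean fold, up to 4 members per list by fold with every member not lost, and the 5 genes with most kept regions; the printed promoters and the runs beyond those genes were chosen after values were seen. Same-numbered libraries were not treated as pairs in the permutation tests of S9.6 against RNase libraries. In the kept regions the log2 fold differences between numbers 1 and 2 before and after RNase had r = 0.000194. That value cannot show whether same-numbered libraries share a culture. Fold ratios and the hairpin comparison did match libraries by number. RNA libraries had 17212 to 17835 genes detected. Alternatives were other thresholds, overlaps, windows, scalings (DESeq2 1.42.0) and left-out libraries. Binomial intervals are exact (Clopper-Pearson).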

Additional observations from a re-analysis of the deposited data

Results flagged for a closer look

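Peaks outside chromosomes 1 to 22 and X, which no comparison above uses, took a larger share of the RNase lists than of the S9.6 lists. They made up 12.03% of RNase 1 (100 of 831 peaks, exact 95% binomial interval 9.90% to 14.4%) and 11.5% of RNase 2 (129 of 1126, 9.65% to 13.5%). In S9.6 1 and S9.6 2 they were 0.122% (60 of 49337) and 0.0543% (21 of 38680). In number they also exceeded the S9.6 libraries, 100 and 129 against 60 and 21. Most lay on unplaced contigs, 73 of the 100 and 94 of the 129. The shRNF8 RNase libraries held 26.4%, 16.7%, 5.49% and 14.7% there, against at most 0.134% in the shRNF8 S9.6 libraries.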

How the results depend on the processing

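The 9 library measures (peak number, covered bases, median fold, median width and the 5 places) kept their direction in 70 of 71 recomputations. These counts include the replicate block once per measure, which leaves the difference itself unchanged and so could not change a direction. The block gives only another p (exact sign-flip p = 0.5 for each, the smallest possible). Introns reversed, to 16.4 percentage points higher after RNase, with S9.6 lists limited to their strongest peaks. The median fold stayed higher after RNase, by 1.33, but by only 0.216 at fold of at least 5. The kept share of regions was 0.440% where the RNase peak had to overlap by 50% of its length, 0.479% with its summit inside, 0.554% at −log10 q of at least 5, 0.833% at fold of at least 5, 0.546% for regions in either S9.6 library, 1.35% for a peak in either RNase library, 2.04% (12 of 589) with strongest S9.6 peaks only, and 0.804% to 0.836% with 1 library pair left out. The kept share of genes was 0.5003% at the stricter q, 2.00% for either RNase library, and 1.12% to 1.42% with a pair left out (124 and 142 genes against 61, as a single RNase library then suffices). RNase peaks outside consensus regions averaged 63.7%, and were 68.0% with the 50% overlap, 68.5% at the stricter q, 71.8% at fold of at least 5, 48.8% outside regions of either S9.6 library, and 47.7% to 64.9% with a pair left out. Median RNA levels rose to 13.0 for lost and 12.7 for kept genes with low counts filtered. The hairpin difference ranged from −0.815 to 0.0227 with a pair left out (reversed without shScr pair 2). The causes were not tested beyond what each alternative's construction shows. The depth of the peak libraries is unknown and limits every count of lost regions. Sequence of whole regions around the summit was not run, as no genome was used here. Outside peaks have no value under the either-RNase-library rule.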
